A study of Mus musculus with 16 samples.

Results

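Trimethylation of lysine 27 on histone H3 (H3K27me3) was mapped by chromatin immunoprecipitation and sequencing in mouse splenic B cells, and the regions described here are shorter peaks of the mark that were listed in solvent-treated cells of both genotypes and in GSK343-treated cells of neither. They were chosen as the peaks of the wild-type (WT) DMSO list on chromosomes 1 to 19, narrower than 10000 bp, that a mutant DMSO peak overlapped by at least 1 bp and that no WT or mutant GSK343 peak overlapped. The members were thus chosen by measured values, the presence of a listed peak in each of the 4 lists, so their presence in DMSO and absence under GSK343 are no finding. The rule found 22427 such peaks among 37984 short autosomal WT DMSO peaks and 39495 WT DMSO peaks in all. They are called lost peaks below, which says only that no peak was listed there under GSK343. A peak that was not listed can still carry the mark below the threshold of the list.

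The B cells came from C57BL/6 mice 6 to 8 weeks old, either WT or Ifih1/Rigi/cGAS triple mutant, the mutated genes encoding cytosolic sensors of RNA (Ifih1, Rigi) and DNA (cGAS). Cells taken through CD43 microbeads were cultured for 48 hours with BAFF and IL-4, each at 2 ng/mL, in DMSO or in 1 µM GSK343, an inhibitor of the methyltransferase EZH2. The 16 samples make 8 groups of 2, ChIP or input DNA from WT or mutant cells in DMSO or GSK343. There is 1 peak list for each of the 4 combinations of genotype and treatment, and the peak names point to duplicates pooled before calling. The labels do not say whether duplicates came from separate mice. The peak names of the mutant lists carry the suffix 1, so that those lists may rest on replicate 1 alone. Neither spread between replicates nor read depth is known, and every difference below is a description of these 4 lists without a test. Neither Ezh2 nor Ifih1 held a peak in any list, nor did Rigi, annotated as Ddx58, while Cgas had 1 peak in each DMSO list, neither of them lost, 3 in the WT GSK343 list and 4 in the mutant GSK343 list. Since no expression was measured, these counts do not check the genotype. Of 10 defining B cell genes fixed as markers (Cd79a, Pax5 and others), none had a peak in any list, whereas 5 of 6 T cell markers had a WT DMSO peak. So did 3 of 5 myeloid markers and 1 of the 2 erythroid markers found. Over all 20665 autosomal protein-coding genes, 6731 had a WT DMSO peak.

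EZH2 is the catalytic subunit of Polycomb repressive complex 2, which places H3K27me3 on silent genes. In differentiated cells the strongest and widest domains of the mark lie over CpG-rich promoters of developmental regulators, and weaker, more diffuse H3K27me3 lies between genes and within silent genes. Inhibitors of the enzyme lower the mark as cells divide and as existing methylation is diluted or removed.

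The promoters below are the strongest cases of lost peaks at start sites. They are not typical of lost peaks, of which 4.32% lay within 1 kb of a start site. Each is the window from 250 bases before to 50 after a start site, from RefSeq on GRCm38.p6, 5′ to 3′ on the strand of the gene, with every CpG in capitals. Trip6, Cox6b2, Lrmda and Esrrg had the highest WT DMSO fold among lost peaks spanning a whole window, and Epb41l3 and Tmem229a the highest among peaks kept in all 4 lists. Csf2 was chosen after its values were seen, as a cytokine gene.
Trip6, a zyxin-family adaptor protein (chr5:137314192-137314491, minus strand): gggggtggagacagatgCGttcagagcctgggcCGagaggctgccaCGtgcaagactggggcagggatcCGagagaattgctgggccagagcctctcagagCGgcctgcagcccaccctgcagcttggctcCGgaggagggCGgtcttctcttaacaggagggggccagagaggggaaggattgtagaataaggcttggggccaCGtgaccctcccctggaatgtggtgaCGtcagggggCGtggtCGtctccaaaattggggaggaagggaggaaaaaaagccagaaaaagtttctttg
Cox6b2, a testis form of a cytochrome c oxidase subunit (chr7:4753045-4753344, minus strand): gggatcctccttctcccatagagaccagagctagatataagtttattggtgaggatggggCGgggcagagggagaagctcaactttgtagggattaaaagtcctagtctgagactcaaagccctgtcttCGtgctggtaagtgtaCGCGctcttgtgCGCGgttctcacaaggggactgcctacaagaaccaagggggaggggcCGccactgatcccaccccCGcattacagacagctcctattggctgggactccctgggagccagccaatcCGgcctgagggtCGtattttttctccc
Lrmda (chr14:22019462-22019761, plus strand): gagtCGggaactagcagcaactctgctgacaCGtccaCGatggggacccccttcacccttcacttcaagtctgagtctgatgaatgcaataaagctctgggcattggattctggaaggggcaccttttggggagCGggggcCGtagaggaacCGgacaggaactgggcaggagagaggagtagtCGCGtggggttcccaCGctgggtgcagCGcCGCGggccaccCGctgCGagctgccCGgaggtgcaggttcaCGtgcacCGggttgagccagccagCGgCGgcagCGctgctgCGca
Esrrg, an orphan nuclear receptor (chr1:187997577-187997876, plus strand): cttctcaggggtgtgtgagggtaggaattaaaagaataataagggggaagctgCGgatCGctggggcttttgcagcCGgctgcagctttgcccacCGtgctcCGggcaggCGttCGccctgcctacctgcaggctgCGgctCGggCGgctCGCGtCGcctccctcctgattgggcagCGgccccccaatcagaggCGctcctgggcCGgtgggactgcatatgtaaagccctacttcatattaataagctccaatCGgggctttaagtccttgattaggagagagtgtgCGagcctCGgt
Csf2, the cytokine GM-CSF (chr11:54249850-54250149, minus strand): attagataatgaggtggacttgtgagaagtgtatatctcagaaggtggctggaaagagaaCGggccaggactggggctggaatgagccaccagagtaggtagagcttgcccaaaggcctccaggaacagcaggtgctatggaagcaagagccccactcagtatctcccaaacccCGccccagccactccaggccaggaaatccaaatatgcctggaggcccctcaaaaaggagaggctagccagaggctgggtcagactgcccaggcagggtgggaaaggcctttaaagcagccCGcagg
Epb41l3, a membrane skeleton protein, kept (chr17:69156494-69156793, plus strand): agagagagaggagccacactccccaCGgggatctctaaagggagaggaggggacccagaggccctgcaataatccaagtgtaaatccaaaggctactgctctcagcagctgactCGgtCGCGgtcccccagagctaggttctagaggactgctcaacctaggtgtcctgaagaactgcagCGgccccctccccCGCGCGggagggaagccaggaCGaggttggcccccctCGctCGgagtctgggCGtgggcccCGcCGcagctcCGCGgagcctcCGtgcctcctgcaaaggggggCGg
Tmem229a, a transmembrane protein, kept (chr6:24956076-24956375, minus strand): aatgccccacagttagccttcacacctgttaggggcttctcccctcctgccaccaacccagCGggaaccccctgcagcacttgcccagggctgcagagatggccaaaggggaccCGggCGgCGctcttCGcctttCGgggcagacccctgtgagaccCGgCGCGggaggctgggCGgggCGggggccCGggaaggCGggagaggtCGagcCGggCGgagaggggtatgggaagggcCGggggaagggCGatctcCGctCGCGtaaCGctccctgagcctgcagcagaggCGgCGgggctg
The 4 lost windows of highest fold held 11, 10, 21 and 19 CpG in the order printed, the kept windows of Epb41l3 and Tmem229a 18 and 24, and the window of Csf2 3. The median over all 594 promoter windows in lost peaks was 7 CpG. The authors gave each peak a fold, the linear ratio of its ChIP signal to background. It is used to describe and rank peaks within 1 list, and where WT and mutant folds stand side by side they are not compared. The lost peak at Trip6 had a fold of 3.43 in WT DMSO and 3.77 in mutant DMSO, and the nearest GSK343 peak was 23.7 kb away. At Cox6b2 the folds were 3.38 and 3.31, at Lrmda 3.36 and 3.18, and at Esrrg 3.32 and 3.30, with the nearest GSK343 peak 343 kb from Esrrg. The lost peak at Csf2, which reaches only into the end of the window, had 2.73 and 2.203. The kept peaks had WT DMSO folds of 5.58 at Epb41l3 and 5.35 at Tmem229a.

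Lost peaks were weak and narrow beside peaks kept in all 4 lists, and close to short autosomal WT DMSO peaks as a whole. Their median WT DMSO fold was 2.46, with quartiles of 2.36 and 2.58 and a range of 2.06 to 4.63, and 22126 of them (98.7%) had a fold under 3. Their median width was 873 bp, with quartiles of 488 and 1545 bp. Together they covered 26.9 Mb, or 31.9% of the bases of the WT DMSO list. For comparison, the 4155 short peaks kept in all 4 lists had a median fold of 3.44 and a median width of 4883 bp, and covered 21.2 Mb. All 37984 short autosomal WT DMSO peaks, of which 59.0% were lost, had medians of 2.48 and 901 bp. The 8042 of them without a mutant DMSO peak had medians of 2.37 and 464 bp. Low fold and small width are thus not particular to lost peaks. Lost peaks made up 74.9% of the 29942 short autosomal peaks shared by the DMSO lists, a share that the choice of peaks fixes. Within single genotypes, 82.9% of short autosomal WT DMSO peaks had no WT GSK343 peak, and 91.1% of such mutant DMSO peaks had no mutant GSK343 peak.

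**Figure D1:**
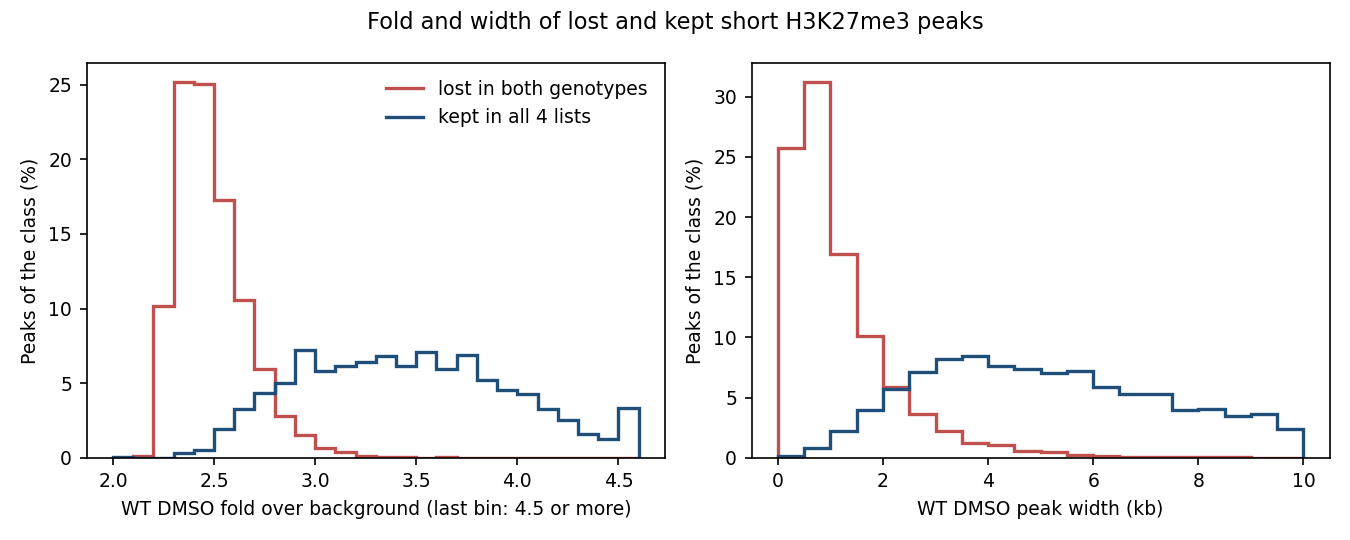
Distribution of the WT DMSO fold (left, linear ratio) and width (right, kb) of lost peaks and of peaks kept in all 4 lists, as percent of each class. Lost peaks gather near their medians of 2.46 and 873 bp, and kept peaks spread from there to higher folds and widths.

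The strength of the lost peaks was set beside the weakest peaks of the GSK343 lists, since both lists stop at a threshold. The weakest peak of the WT GSK343 list had a −log10 p-value of 3.47, and that of the mutant GSK343 list 3.602. In WT DMSO, 8675 of the lost peaks (38.7%) had a smaller −log10 p-value than the weakest WT GSK343 peak. In mutant DMSO, 6736 (30.0%) had a smaller value than the weakest mutant GSK343 peak. No GSK343 peak of the same genotype was listed at so weak a p-value. The smallest −log10 p-values of the DMSO lists were 2.81 in WT and 2.58 in the mutant. The smallest −log10 q-values lay closer together, at 1.035 in WT DMSO, 1.030 in mutant DMSO, 1.066 in WT GSK343 and 1.075 in mutant GSK343. The lists thus stop at nearly the same q-value and at unlike p-values. Whether read depth bears on these minima was not tested. The remaining 10504 lost peaks (46.8%) lay at or above that strength in both genotypes. Among shared short peaks whose WT −log10 p-value reached the minima of both GSK343 lists, 11188 of 18205 were lost, or 61.5% (95% Wilson interval 60.7 to 62.2%). Among the weaker ones the share was 95.8% (95.4 to 96.1%). Intervals here cover the counting of peaks only, and neighbouring peaks are not independent.

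Across deciles of the shared short peaks ranked by WT DMSO p-value, the lost share was 97.7% in the weakest decile, 41.1% in decile 9 and 2.24% in the strongest. The strongest decile, with −log10 p-values of 6.31 and above, held 67 lost peaks.

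**Figure D2:**
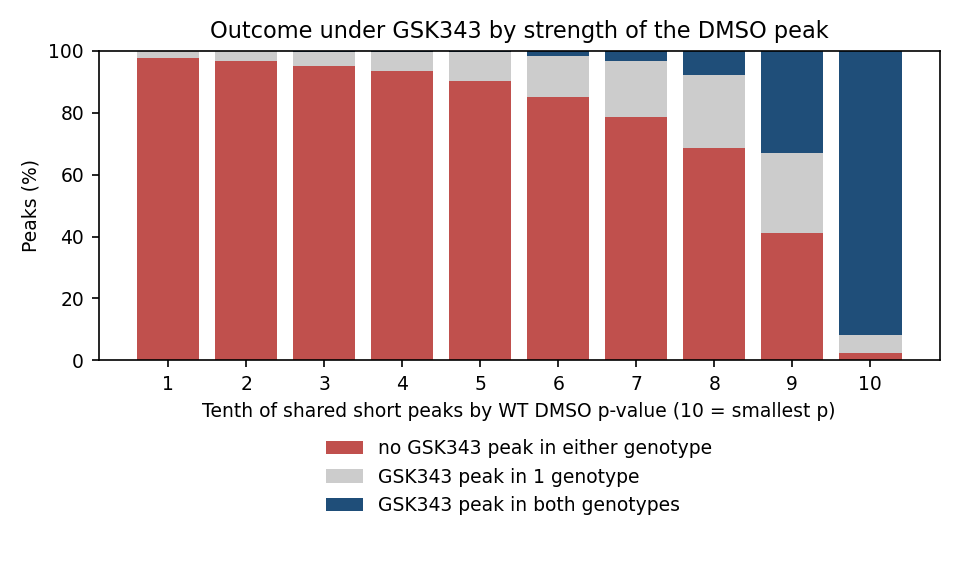
Percent of shared short peaks with a GSK343 peak in neither, 1 or both genotypes, by decile of WT DMSO p-value (2994 or 2995 peaks each). The lost share is above 90% in the 5 weakest deciles and 2.24% in the strongest, where 91.9% were kept in both genotypes.

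In the mutant DMSO list, whose overlap the rule required, the median fold of the strongest peak over each lost peak was 2.46. Across the 22427 lost peaks the folds of the 2 genotypes had a Spearman correlation of 0.24, a description over peaks whose values come from the same pooled libraries. Mutant DMSO peaks covered 12747 lost peaks (56.8%) in full, and 18876 (84.2%) by at least 50%. Overlaps as short as 1 bp occurred, at peaks in C1qtnf3 and Kirrel and at an intergenic peak on chromosome 3. Several lost WT peaks often fell under 1 mutant peak. Of 18074 mutant DMSO peaks over lost peaks, 3548 spanned 2 or more, and these held 8479 lost peaks (37.8%). The most, 13, lay under a mutant peak of 96.7 kb on chromosome 15 (102723741 to 102820484). At 3288 lost peaks (14.7%), the mutant DMSO peak was itself touched elsewhere by a mutant GSK343 peak.

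The 5 lost peaks of highest WT fold were 206 to 986 bp wide. The strongest lay outside any gene on chromosome 17 (22876315 to 22876520) with a fold of 4.63 in WT and 2.26 in the mutant, 1.06 kb from a GSK343 peak. The next lay outside genes on chromosome 3 (96985796 to 96986338), with folds of 4.02 and 2.49. A peak of 313 bp in Syt2 (chromosome 1, 134735946 to 134736258), which encodes a synaptic calcium sensor, had folds of 3.74 and 2.63. One of 986 bp on chromosome 6 (51085411 to 51086396), again outside genes, had 3.70 and 2.69. A peak in the transporter gene Abcc6 (chromosome 7, 46011153 to 46011434) had 3.70 and 2.93.

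The widest lost peaks had WT folds of 2.55 to 2.75. They were an intergenic peak of 9675 bp on chromosome 7 (142062370 to 142072044; folds 2.75 in WT and 2.65 in the mutant), one of 9621 bp in Morn5 on chromosome 2 (36049547 to 36059167; 2.68 and 2.87) and an intergenic one of 9610 bp on chromosome 16 (31653355 to 31662964; 2.65 and 2.53). An intergenic peak of 9260 bp on chromosome 6 (34449091 to 34458350) followed, with 2.55 and 2.62. The fifth, of 9158 bp on chromosome 15 (79557156 to 79566313), lay in Dmc1, which encodes the meiotic recombinase, with 2.58 and 2.77, and was 3.28 kb from a GSK343 peak. Just above the width limit, 9 peaks met the rest of the rule, the narrowest being 10005 bp in Nipal1, 10075 bp outside genes on chromosome 11 and 10290 bp over the pseudogene Gm16494.

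Lost peaks lay both beside remaining peaks and far from them. The median distance to the nearest GSK343 peak of either genotype was 14.3 kb, with quartiles of 4.68 and 51.0 kb. Within 5 kb of a GSK343 peak lay 5910 lost peaks (26.4%), and more than 100 kb away lay 3287 (14.7%). Runs of lost peaks along the chromosomes are described next. As 59.0% of short autosomal WT DMSO peaks were lost, runs would also arise in a random order of peaks. The share expected from a random order was not computed, so no clustering is read from the runs. Runs of 5 or more consecutive WT DMSO peaks that were all lost held 8274 of them (36.9%), and 16.9% had no lost neighbour. The longest run had 24 lost peaks over 116 kb of chromosome 9 (58911567 to 59027713), at Neo1, a receptor for netrins and repulsive guidance molecules, with WT folds of 2.294 to 2.86 and 1 GSK343 peak in a gap between them. In the next, 20 lost peaks spanned 72.1 kb at Zswim5 on chromosome 4 (116905964 to 116978054), with no GSK343 peak inside. A run of 19 over 368 kb on chromosome 3 (19181051 to 19549052) crossed Mtfr1, Pde7a and Dnajc5b. The lost share of shared short peaks was alike across autosomes, from 71.2% on chromosome 10 to 78.5% on chromosome 13.

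**Figure D3:**
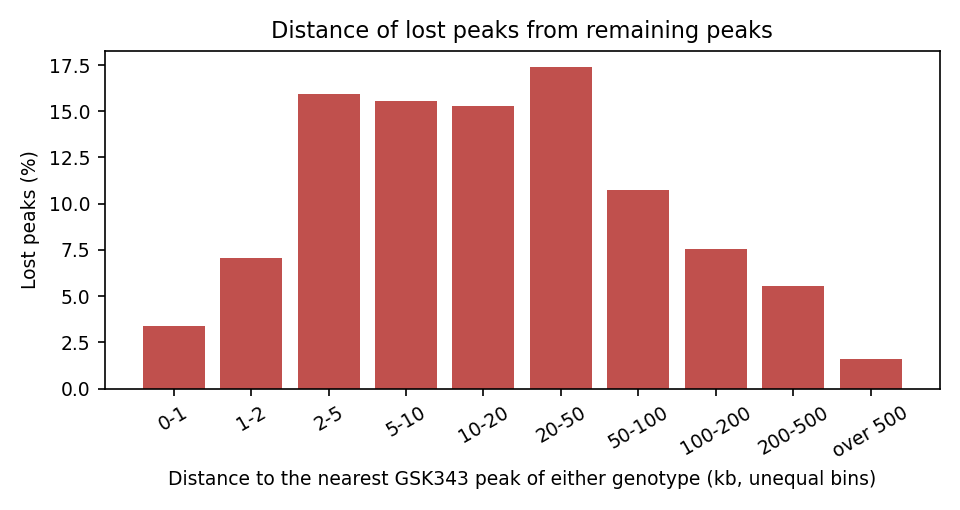
Percent of the 22427 lost peaks by distance to the nearest GSK343 peak of either genotype, in unequal bins. The bins from 2 to 50 kb each hold between 15.3% and 17.4%, and 3.36% lie within 1 kb.

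Position relative to genes, which the rule did not use, differed between lost and kept peaks of these lists, without a test. The kept peaks are also the stronger and wider ones. Of the lost peaks, 8433 (37.6%, 37.0 to 38.2%) overlapped the body of a protein-coding gene, against 79.3% (78.0 to 80.5%) of kept peaks and 43.0% of all short autosomal WT DMSO peaks. Outside any annotated gene lay 50.03% of the lost peaks, 12.9% of the kept ones and 44.8% of all short autosomal WT DMSO peaks. A start site of a protein-coding gene lay within 1 kb of 942 of 21827 lost peaks, or 4.32% (4.05 to 4.59%), and of 49.0% (47.5 to 50.6%) of kept peaks. Over all short autosomal WT DMSO peaks this share was 9.68%. The share of lost peaks at a start site was 11.6% with a q-value of at most 0.01 in all 4 lists, 13.1% with a fold of at least 3 and 7.99% with a window of 2.5 kb. Chromosome 18 is left out of counts of start sites because start sites there were not used here.

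The shares are also given by width and fold, in which lost and kept peaks differ. Among peaks 2 to 4 kb wide, 5.93% of 2850 lost and 44.7% of 1190 kept peaks were at a start site. With the fold also held between 2.6 and 3.0, the shares at that width were 8.39% (6.75 to 10.4%) of 894 lost peaks and 27.1% (22.3 to 32.6%) of 280 kept peaks. At 4 to 10 kb and the same folds they were 9.80% and 26.3%. In bodies of protein-coding genes, also without chromosome 18, lay 37.8% of lost and 59.6% of kept peaks at 2 to 4 kb and these folds. At 4 to 10 kb these shares were 37.8% and 58.1%. The part of width and fold in the difference was not tested.

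Promoter windows in lost peaks held fewer CpG at the median than those in kept peaks. The 594 windows of protein-coding genes that a lost peak overlapped had a median of 7 CpG in 300 bases, against 19 in 2218 windows in kept peaks and 14 in all 20085 windows. The ratio of observed to expected CpG had medians of 0.33, 0.66 and 0.59 in the same order. A ratio of at least 0.6 was found in 21.5% (18.4 to 25.03%) of windows in lost peaks, 58.5% (56.5 to 60.6%) of those in kept peaks and 48.9% of all. This difference moved with the fold of the peaks. Among windows in peaks with a fold of 2.6 to 3.0, the median ratio was 0.41 for 223 in lost peaks and 0.43 for 216 in kept peaks. In that range of fold, the share of windows in a lost peak was 36.6% (31.3 to 42.3%) with a ratio under 0.4. With a ratio of at least 0.6 it was 32.5% (26.5 to 39.2%). With the width also held at 1 to 4 kb, these shares were 45.6% (37.5 to 54.0%) and 36.5% (28.9 to 44.8%). The intervals overlap in both cases, which is no test of a difference. The 594 windows belong to 536 genes, so windows are not independent.

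Of 3 motifs searched on both strands in these windows, the GC box GGGCGG, which Sp and KLF factors bind, occurred in 35.0% of windows in lost peaks, 64.6% of those in kept peaks and 47.0% of all promoters. The TATA motif TATAAA occurred in 12.1%, 7.30% and 12.7%, and CCAAT, the core of NF-Y sites, in 36.5%, 29.8% and 38.1%. The GC box itself contains a CpG, and these shares were not matched for the fold of the peaks, with which the CpG difference moved. A match of letters is not a bound site.

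**Figure D4:**
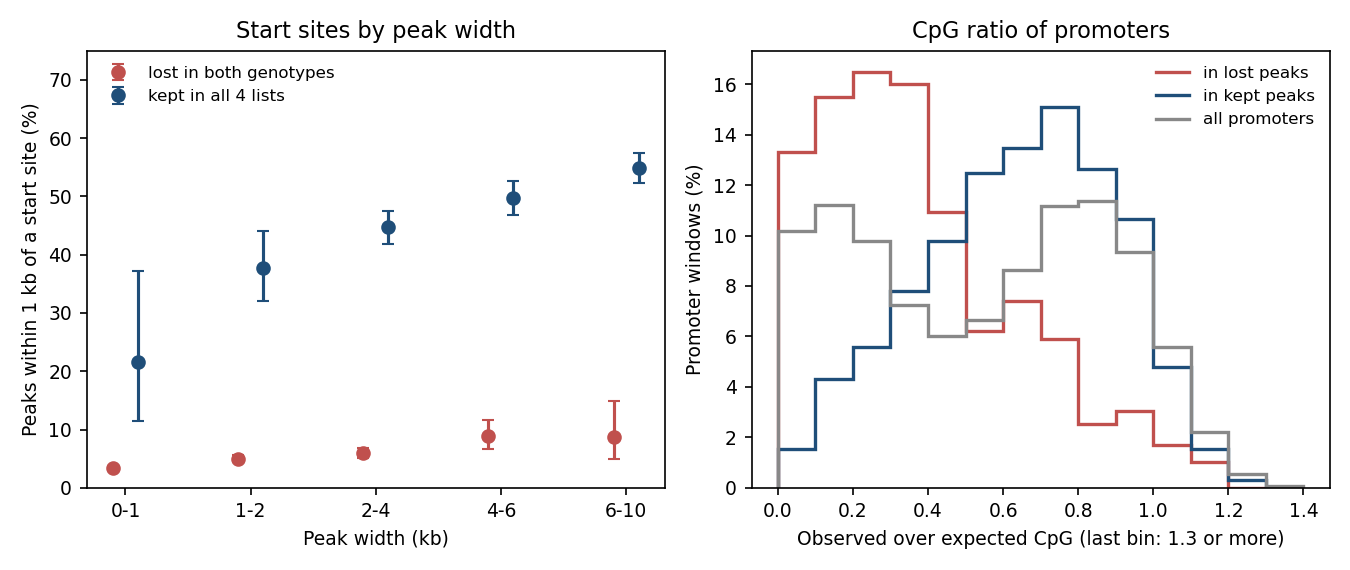
Left, percent of lost and kept peaks within 1 kb of a protein-coding start site by peak width in kb, with 95% Wilson intervals. Right, distribution of observed over expected CpG in promoter windows in lost peaks, in kept peaks and in all promoters. Lost peaks stay under 10% in every width class, and their promoters lie mostly at low ratios.

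At the level of genes, 3407 of 20665 autosomal protein-coding genes had a lost peak in their body. Of these, 1971 (57.9%) also held a GSK343 peak elsewhere in the body, and 1436 held none in either genotype. These 1436 genes, called fully lost below, are 6.95% of the genes examined and 21.3% of the 6731 genes with a WT DMSO peak. They had a median length of 22.0 kb, against 30.8 kb for the genes with a WT DMSO peak and a GSK343 peak. Lost peaks covered a median of 5.41% of their bodies, and 970 of them had a single lost peak. Of the 1144 fully lost genes with an entry in the promoter table, 606 (53.0%) had a lost peak within 1 kb of a start site. No share over other genes is set beside this value, so no preference for start sites is read from it.

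The fully lost genes of at least 2 kb covered most by lost peaks had 1 WT DMSO peak each. Glycam1 (chromosome 15, 103562759 to 103565081), a mucin-like ligand of L-selectin, and Gm51581 on chromosome 1 were covered by 100% each, by single peaks with WT folds of 2.49 and 2.41. Lypd3, a surface protein of squamous epithelium, was covered by 97.2% (fold 2.52 in WT and 2.87 in the mutant), and Fgfbp1, which releases FGFs from the matrix, by 91.1% (2.48 and 2.55). The protease inhibitor gene Spint4 was covered by 87.9%, the cystatin family gene Cstdc2 by 85.3% and the spermatogenesis-associated gene Spata33 by 75.6%. H2-M10.6, a non-classical MHC class I gene, was covered by 75%, Tex46 by 71.3% and Gm13030 by 70.0%. By number of lost peaks, Gm11639 held 24, Tnr, which encodes the neural matrix protein tenascin-R, 15, the meiotic cohesin gene Smc1b 13, Dnajc5b 12 and the retinal polarity gene Crb1 11. Smc1b had 14 WT DMSO peaks in all.

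Gene lists, chosen with earlier results of these data known, are described by how many of their members were fully lost. The percentages above give the background for each list: 6.95% of all genes, and 21.3% of genes with a WT DMSO peak. Neither is matched for gene length or for the number of peaks in a gene. Counted over peaks instead of genes, 59.0% of short autosomal WT DMSO peaks were lost. No list was tested, and neighbouring genes can share a peak. Of 40 cytokine and chemokine genes, 17 had a WT DMSO peak and 8 were fully lost, which is 20% of the list and 47.1% of those with a peak. That share is above the 21.3% over genes and below the 59.0% over peaks. Of the 8, Tnfsf8 is 30307 bp long and the others 2630 to 9878 bp, below the median of 22.0 kb for fully lost genes. Il10, the anti-inflammatory cytokine, was covered by 36.9%, and its strongest lost peak (chromosome 1, 131018427 to 131021024, 2598 bp) had a fold of 2.76 in WT DMSO and 3.02 in mutant DMSO. The peak at Csf2 was 707 bp long (chromosome 11, 54249183 to 54249889) and had the folds given with its sequence. Il21, a helper T cell cytokine that drives germinal centres, had a lost peak of fold 2.48 in WT and 2.36 in the mutant (chromosome 3, 37224542 to 37225105). Il5, the eosinophil cytokine, had one of 2.405 and 2.45 near its start site (chromosome 11, 53720781 to 53721941). The nearest GSK343 peaks to these 4 were 52.8 to 118 kb away. Tnfsf8, Ebi3, Il1b and Ccl22 made up the rest of the 8. When the WT DMSO peak had to reach the strength of the weakest GSK343 peaks, 3 of 11 cytokine genes with such a peak were fully lost (27.3%), namely Il10, Csf2 and Il21, against 15.9% of all genes.

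Among 19 plasma cell and germinal centre genes, 9 had a WT DMSO peak and 3 were fully lost, or 33.3% of those with a peak. Rgs13, a regulator of G protein signalling in germinal centre B cells, had a strongest lost peak of fold 2.59 in WT and 2.53 in the mutant (chromosome 1, 144164985 to 144167363). The death receptor gene Fas had one of 239 bp with folds of 2.33 in each. At the common strength 1 of 6 was fully lost (16.7%, beside 15.9% of all genes), namely Rgs13. None of 19 B cell identity genes found had a WT DMSO peak, beside 6731 of 20665 autosomal protein-coding genes.

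Of 29 T and innate lymphoid lineage genes, 17 had a WT DMSO peak and 2 were fully lost (11.8%, beside the background of 21.3%). At the common strength 1 of 16 was fully lost (6.25%, beside 15.9% of all genes), namely Cd4. The coreceptor gene Cd4 held 5 lost peaks that covered 19.9% of it, the strongest with folds of 2.59 in WT and 2.44 in the mutant (chromosome 6, 124872715 to 124873806), 8.41 kb from a GSK343 peak. Cd5, an inhibitory receptor of T cells and B-1 cells, had a single lost peak of 2.34 and 2.38. Of 24 myeloid, erythroid and stem cell genes, 4 of 17 with a peak were fully lost (23.5%, near the background), and at the common strength 2 of 15 (13.3%). They include Adgre1, the gene of the macrophage antigen F4/80 (2.81 in WT and 2.37 in the mutant), Tek, the angiopoietin receptor (2.67 and 2.93, 3004 kb from a GSK343 peak) and the erythroid repressor gene Gfi1b (2.38 and 2.43). Of 26 nucleic acid sensor and interferon genes found on autosomes, 7 had a WT DMSO peak, and Oas2, an interferon-induced synthetase, was fully lost with a peak of 2.37 and 2.24. Oas2 did not pass the common strength.

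The lists of developmental, cell cycle inhibitor and Polycomb genes had few or no fully lost members. The background is again 21.3% of all genes with a WT DMSO peak. None of 30 developmental transcription factor genes was fully lost, and all 30 held a GSK343 peak, although 6 also had lost peaks. None of 45 genes of Wnt, FGF, BMP and Hedgehog ligands was fully lost, with 16 holding lost peaks and 42 a GSK343 peak. The 4 cell cycle inhibitor genes with a WT DMSO peak each kept a GSK343 peak. None of 19 Polycomb and H3K27 demethylase genes was fully lost, but only 7 of them had a WT DMSO peak. With 4 and 7 such genes, the last 2 lists are too small for the absence of fully lost members to be read as a result. Of 47 axon guidance genes, 2 were fully lost, the receptor genes Robo1 (2.54 in WT and 2.51 in the mutant) and Dcc (2.34 and 2.201), through single lost peaks of 427 and 543 bp in genes that span over 1000 kb.

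**Figure D5:**
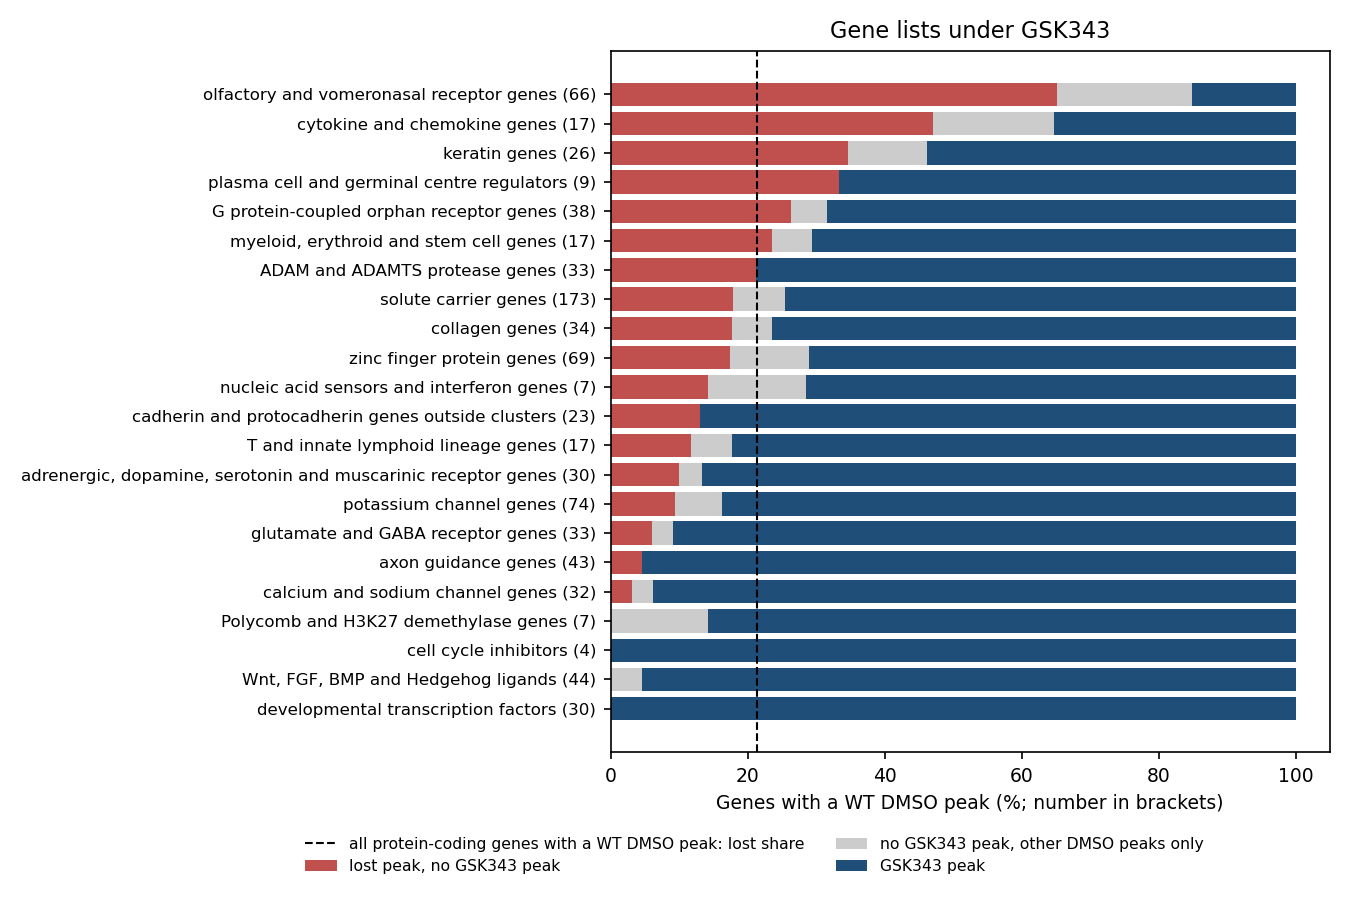
For each gene list, the percent of genes with a WT DMSO peak (number in brackets) that were fully lost, had other DMSO peaks and no GSK343 peak, or had a GSK343 peak. The dashed line marks 21.3%, the fully lost share of all genes with a WT DMSO peak, not matched for gene length or number of peaks. Olfactory and vomeronasal receptor genes (65.2%) and cytokine genes (47.1%) are at the top, and developmental transcription factor genes are at 0.

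Olfactory and vomeronasal receptor genes, 1458 in number, had a WT DMSO peak in 66 cases, of which 43 were fully lost. That is 2.95% of the list, below the 6.95% of all genes, and 65.2% of those with a peak, above the 21.3% of all genes with one. Many of the fully lost ones are about 1 kb long with a single WT DMSO peak, such as Olfr169 (942 bp). For such genes the share over peaks is the closer background. It was 59.0% of short autosomal WT DMSO peaks and 74.9% of those shared with the mutant. At the common strength 25 of 38 were fully lost (65.8%), beside 15.9% of all genes and 61.5% of shared short peaks. The share of these receptor genes is thus near that over peaks. The strongest were at Olfr169 (fold 2.95 in WT and 2.18 in the mutant), Olfr1360 (2.84 and 2.30), Vmn1r4 (2.66 and 2.12) and Olfr287 (2.64 and 2.66). These receptors belong to families of similar copies, and how reads with several matches were placed is not given in the sources used here. Of 26 keratin genes with a peak, 9 were fully lost (34.6%), and at the common strength 4 of 19 (21.1%, beside 15.9% of all genes). Among the 9 were Krt26 (2.63 and 2.94), Krt7 (2.62 and 2.22), Krt88 (2.49 and 2.25) and Krt27 (2.47 and 2.68). Krt26 and Krt27 are keratins of the hair follicle and Krt7 of simple epithelia.

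The other families had shares from 13.0% to 26.3% of genes with a WT DMSO peak, beside the background of 21.3%. Orphan G protein-coupled receptor genes were fully lost in 10 of 38 cases (26.3%), led by Gpr55 (2.87 in WT and 3.23 in the mutant) and Gpr39 (2.73 and 2.61). ADAM and ADAMTS protease genes were fully lost in 7 of 33, led by the sperm surface gene Adam2 (3.04 and 2.87). Solute carrier genes were fully lost in 31 of 173 (17.9%). The first by fold, Slc12a9, owed its place to the peak at the neighbouring Trip6 promoter, and the nucleoside transporter gene Slc29a1 followed (3.01 and 2.53). Collagen genes were fully lost in 6 of 34, with Col6a5 (2.94 and 2.42), Col6a2 (2.74 and 2.59), Col11a1 (2.62 and 2.67) and Col1a2 (2.61 and 3.34) first. Zinc finger protein genes were fully lost in 12 of 69, led by Zfp354b (3.01 and 2.55). Of 23 cadherin and protocadherin genes with a peak, 3 were fully lost, led by the neural cell adhesion gene Pcdh18 (3.09 and 3.31, with the nearest GSK343 peak 1638 kb away).

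The neuronal lists had shares of 3.125% to 10%, with no test of the difference from 21.3%. The counts were 7 of 74 potassium channel genes (9.46%), 1 of 32 calcium and sodium channel genes (Cacng3, 2.72 in WT and 2.41 in the mutant), 2 of 33 glutamate and GABA receptor genes (Gabrg3 and Grik2) and 3 of 30 aminergic and muscarinic receptor genes (Htr3a, Chrm5 and Drd3). Kcna10 was first among the potassium channel genes, with 4 lost peaks over 26.4% of its body.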

How the data were processed

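H3K27me3 ChIP and input DNA of splenic B cells was sequenced in 16 samples, and 1 broad peak list per genotype and treatment was analysed. The submitters' processing notes name Bowtie2 2.4.2, SAMtools 1.12, MACS2 2.2.7.1, bedtools 2.29.2, deepTools 3.5.1 and the build mm10, and their settings are not given in the sources used here. The lists' names say that blacklisted peaks had been removed. Every peak carries the authors' deposited fold (ratio), −log10 p-value, −log10 q-value and score, the last a rounded form of the q-value. Depth per sample is unknown.

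Overlaps were computed with Python 3.11.15, numpy 2.4.6, pandas 2.3.3 and scipy 1.17.1, plotted with matplotlib 3.10.9, and checked against bedtools 2.31.1 and planted classes (10 of 10 checks passed). Genes and start sites are from RefSeq on GRCm38.p6. Positions are counted from 1. Shares carry 95% Wilson intervals. No difference between groups was tested, because each has 1 list.

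Named were the 5 strongest and 5 widest lost peaks, the 10 fully lost genes of at least 2 kb covered most and the 5 with most lost peaks, up to 4 genes of each of 23 gene lists by fold, and sequences by fold. Tnfsf8, Ebi3, Il1b and Ccl22 were named to complete a list, and some genes that the rule names are not reported here. The peaks, lists and rules were chosen with earlier results of these data known. Of 10 alternative settings, the p-value minimum (common strength) and the WT lists alone were chosen after the data were seen. Start sites on chromosome 18, and of genes without a promoter entry, were not used here. No genome was used, so repeats were not analysed here.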

Additional observations from a re-analysis of the deposited data

How the results depend on the processing

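The 8 results were recomputed under 10 other settings, 8 of them planned and 2 added once the data had been seen. Of the 73 values, 51 moved outside the interval of the reported value (for counts, beyond 1.5 times) and 22 did not. The cause of a move was not tested, except where a filter fixes it. No paired analysis was possible because the lists hold no separate replicates, and for that reason no replicate could be left out. No genome sequence was used, so repeat content was not analysed here. The absence of a GSK343 peak is limited by the strength that list required, and by an unknown depth.

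With a q-value of at most 0.01 in all 4 lists, 7126 peaks were lost (65.9% of shared short peaks), with a median fold of 2.71, a median width of 1858.5 bp, 43.4% in gene bodies, 11.6% at start sites and a median distance of 41.0 kb. With a fold of at least 3, 301 peaks were lost (7.71%), with values of 3.11, 768 bp, 47.5%, 13.1% and 16.75 kb in the same order, and 58 fully lost genes. With peaks of at least 1 kb, 9641 were lost (58.3%), with a fold of 2.499, a width of 1696 bp, 5.56% at start sites, 12.6 kb and 811 genes. With WT DMSO p-values reaching both GSK343 minima (added later), 11188 were lost (61.5%), with 2.58, 1085 bp, 38.4%, 5.46%, 13.0 kb and 952 genes.

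With no GSK343 peak within 5 kb, 55.2% were lost, with 2.45, 858 bp, 36.8%, 4.79% and 26.9 kb. With mutant DMSO peaks as the base, 72.7% were lost, with a mutant fold of 2.38, 1785 bp, 38.7%, 6.28% and 21.7 kb. With the WT lists alone (added later), 82.9% were lost, with 2.44, 755 bp and 21.0 kb. With at least 50% of the WT peak covered in the mutant, the values that moved were 71.9%, 2.47 and 13.4 kb. Without a width limit 72.0% were lost. A window of 2.5 kb put 7.99% of lost peaks at a start site.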

Other observations

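Part of the miR-290 cluster, whose microRNAs are abundant in embryonic stem cells and silent in most differentiated cells, lay in a single lost peak on chromosome 7 (3217739 to 3219932). The peak had a fold of 2.87 in WT DMSO and 2.86 in mutant DMSO, and the nearest GSK343 peak was 44.7 kb away. It overlapped 5 of the 8 hairpins annotated there (Mir290a, Mir290b, Mir291b, Mir292 and Mir292b). The other 3, Mir293, Mir294 and Mir295, had a mutant DMSO peak and no WT DMSO peak, and no hairpin of the cluster had a GSK343 peak. The mature sequences of 4 arms from the lost peak, from RefSeq on GRCm38.p6, are shown 5′ to 3′ with the seed (bases 2 to 8) in capitals, as examples of what the peak holds. The 5p arms of miR-290a and miR-292a have the same seed.
miR-290a-3p: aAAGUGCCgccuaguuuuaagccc
miR-291b-3p: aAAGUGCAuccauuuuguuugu
miR-290a-5p: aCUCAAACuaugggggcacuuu
miR-292a-5p: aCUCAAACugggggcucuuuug
In all, 16 of 919 autosomal microRNA hairpins overlapped a lost peak, 36 a kept peak and 102 any WT DMSO peak. Over all short autosomal WT DMSO peaks, 59.0% were lost and 10.9% kept, the reverse order of the hairpin counts, without a test. Those shares count peaks and not hairpins, and kept peaks are wider. By bases the 2 classes are closer, with 31.9% of the WT DMSO list in lost and 25.2% in kept peaks. Of the 16 hairpins, 5 share the miR-290 peak. The lost ones include Mir146b, a feedback regulator of innate immune signalling (fold 2.48 in WT and 3.03 in the mutant), and Mir182 (2.42 and 2.599), 1.78 kb from a GSK343 peak. Mir184 had the lowest WT fold of the 3 (2.28, against 2.48 in the mutant).

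Of 162 immunoglobulin kappa V segments, 15 had a WT DMSO peak, 9 a lost peak and 2 a GSK343 peak, while 1 of 183 heavy chain V segments had a WT DMSO peak. With 59.0% of all short autosomal WT DMSO peaks lost, the kappa count is near the share over all peaks. These segments are near-identical copies of each other in places, so the placement of reads among them is uncertain.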
